A study of Zea mays with 18 samples.

Results

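The maize genes cyc1 (GRMZM2G034647), cyc3 (GRMZM2G073671) and cyclin9 (GRMZM2G017081) were followed from the gametes to the daughter cells of the first zygotic division. They were chosen by gene ID, as 3 of the 39475 IDs in the count table, and all 3 passed the filter on low counts. They are 3 of the 11 cyclin genes that a reference gene table pairs with an ID in the counts, and the other 8 are described after them. The reference entry of cyc1 also carries the names CYC1b and cyclin-A1, so no cyclin class was assigned to it.

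Polyadenylated RNA was sequenced from hand-dissected cells of untreated wild-type maize plants (Zea mays, inbred line B73) kept in a growth chamber. There were 6 groups of 3 libraries: sperm cells (1000 cells a library), egg cells (20 cells), zygotes 12 h after pollination (14 to 15 cells), zygotes 24 h after pollination (16 to 17 cells), and the apical cells (16 cells) and basal cells (13 to 14 cells) of the divided zygote. The times rest on reading the label "hap" as hours after pollination. Each library pooled cells. Whether the libraries of a group stem from different plants is not stated, so the p-values reflect the scatter of these libraries, some of which may be technical.

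Cyclins are the regulatory subunits of cyclin-dependent kinases, the enzymes that drive a cell through DNA replication and mitosis. Different classes act at different steps: D-type cyclins in the decision to enter the cycle, and A-type and B-type cyclins in replication and mitosis. Cyclins are made and destroyed within each cycle, so their transcripts are often read as a sign of the cycle stage. After fertilisation, the zygote of flowering plants divides unequally into a small apical cell, from which most of the embryo arises, and a larger basal cell.

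Total counts ran from 11128444 to 25771168 per library. Levels are given as CPM, counts scaled to a common library size, after TMM scaling, which corrects library sizes for differences in RNA composition; the scaling factors were 0.454 to 0.502 in sperm and 1.44 to 1.56 in 12 h zygotes. The sperm gene hap2, needed for gamete fusion, reached 586 to 923 CPM in sperm, against 3.11 to 8.62 CPM in eggs. The summed level of the egg and embryo sac genes es1, es2 and es4 was 574 to 3786 CPM in eggs, against 30.8 to 34.8 CPM in sperm. It was 1660 to 1949 CPM in 12 h zygotes, 595 to 1581 CPM in 24 h zygotes, 22.5 to 30.03 CPM in apical cells and 98.5 to 154 CPM in basal cells. Of 8 genes of mature pollen, all 8 reached 1 CPM in every sperm library, with a sum of 1122 to 1483 CPM in sperm against 20.4 to 40.0 CPM in eggs. Apical replicate 1 stood apart with a sum of 169 CPM for these pollen genes, against 1.79 and 3.39 CPM in the other apical libraries.

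The transcript of cyc1 was nearly missing from eggs, low in sperm and 12 h zygotes, and highest in 24 h zygotes. Its level was 22.4, 12.2 and 5.96 CPM in sperm. In eggs it had 0 counts in 2 libraries and 11 counts, 0.665 CPM, in the third. The gene then stood at 4.45, 9.56 and 15.9 CPM in 12 h zygotes and at 152, 100.0 and 159 CPM in 24 h zygotes. The 12 h values varied, and the highest of them, 15.9 CPM, lay well below the lowest 24 h value. In the daughter cells it was at 47.5, 50.3 and 38.3 CPM in apical cells and 82.1, 53.7 and 85.6 CPM in basal cells. Every daughter cell library lay below every 24 h zygote library and above every 12 h zygote library. Ordered by mean level, cyc1 was highest in 24 h zygotes, then basal cells, apical cells, sperm, 12 h zygotes and eggs, and sperm and 12 h zygotes were the neighbours in that order whose ranges overlapped. With library size only as the scaling, 12 h zygotes stood above sperm.

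Relative to eggs, cyc1 rose in 12 h zygotes, with means of 9.98 ± 5.76 CPM in 12 h zygotes and 0.222 ± 0.384 CPM in eggs (SD, n = 3 each) and a log2 fold change of 5.40 ± 0.79 (edgeR quasi-likelihood test, adjusted p = 0.000303). The error printed with each log2 fold change, here and below, is an approximate standard error. That fold rests on the 11 counts of egg replicate 3. By the ratio of means over all egg libraries, cyc1 was 45.0-fold higher in 12 h zygotes. Without egg replicate 3 the eggs held 0 counts of cyc1. Against the other egg libraries alone the gene was at least 93.9-fold higher in 12 h zygotes, taking 3 counts over them as the floor. That bound does not hold for all egg libraries. Relative to 12 h zygotes, cyc1 was 13.7-fold higher in 24 h zygotes by the ratio of means, 137 ± 32.5 CPM against 9.98 ± 5.76 CPM, and the log2 fold change was 3.77 ± 0.64. That contrast is one for which cyc1 and cyc3 had been singled out in the same data, so their values in it are a description without a test. Between 24 h zygotes and eggs the log2 fold change was 9.17 ± 0.87 (edgeR, adjusted p = 7.86e-06). The same 24 h libraries had served to single out cyc1, so this p is not independent of that choice. By the ratio of means over all egg libraries, cyc1 was 619-fold higher in 24 h zygotes than in eggs. Against the egg libraries without replicate 3 it was at least 1291-fold higher, a bound for those libraries only.

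Sperm libraries had a higher level of cyc1 than egg libraries, at 13.5 ± 8.31 CPM against 0.222 ± 0.384 CPM in eggs (SD, n = 3 each). The log2 fold change was 5.76 ± 0.85 (edgeR, adjusted p = 1.64e-05). CPM is a share of a library, so these values do not give amounts per cell. By the ratio of means over all egg libraries, cyc1 was 61.0-fold higher in sperm. Against the egg libraries without replicate 3 it was at least 127-fold higher, a bound for those libraries only. The pollen genes given above were also higher in the sperm libraries, and their part in this difference was not tested. Between 12 h zygotes and sperm no difference passed the test, with a log2 fold change of -0.40 ± 0.63 (edgeR, adjusted p = 0.576; approximate 95% interval -1.64 to 0.84). That value was 1.21 with library size only, and 0.19 without sperm replicate 1.

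The transcript of cyc3 had 0 counts in all 3 sperm and all 3 egg libraries, was low and uneven in 12 h zygotes, and was abundant from 24 h on. It had 21, 27 and 139 counts in the 12 h zygote libraries, which is 0.994, 1.03 and 8.43 CPM. Replicate 3 thus held most of the 12 h counts. In 24 h zygotes cyc3 was at 166, 89.3 and 154 CPM, and every 24 h library lay far above every 12 h library. It stood at 282, 239 and 111 CPM in apical cells and at 210, 237 and 312 CPM in basal cells. The mean level was highest in basal cells, then apical cells, 24 h zygotes and 12 h zygotes, with sperm and eggs at 0. Basal and apical cells overlapped in range, as did apical cells and 24 h zygotes, whereas basal cells lay wholly above 24 h zygotes.

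In the gametes a count of 0 allows up to 3 counts over the 3 libraries, which is 0.0935 CPM in sperm and 0.0670 CPM in eggs and covers counting error only. Against these floors, the mean 12 h level of cyc3 was at least 52.0-fold higher than in eggs and at least 37.3-fold higher than in sperm. That mean of 3.48 CPM was carried by 12 h replicate 3, at 8.43 CPM. For replicates 1 and 2, at 0.994 and 1.03 CPM, the bounds would be lower. Both differences passed the test (edgeR, adjusted p = 0.00131 against eggs and adjusted p = 0.000365 against sperm). Without the high 12 h replicate 3 they passed too, with adjusted p = 0.00102 against eggs and adjusted p = 0.000107 against sperm. In 24 h zygotes cyc3 was at least 2032-fold higher than in eggs (edgeR, adjusted p = 3.04e-05) and at least 1458-fold higher than in sperm. As for cyc1, the 24 h libraries had served to single out the gene, so that p is not independent of the choice. In the daughter cells cyc3 was at least 3140-fold higher in apical cells and at least 3770-fold higher in basal cells than in eggs.

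Relative to 12 h zygotes, cyc3 was 39.1-fold higher in 24 h zygotes by the ratio of means, 136 ± 41.1 CPM against 3.48 ± 4.28 CPM (SD, n = 3 each). The log2 fold change was 5.31 ± 0.78 with all libraries and 7.06 without 12 h replicate 3, the library with 139 counts. The gene's values in that contrast are a description, for the reason given for cyc1.

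**Figure D1:**
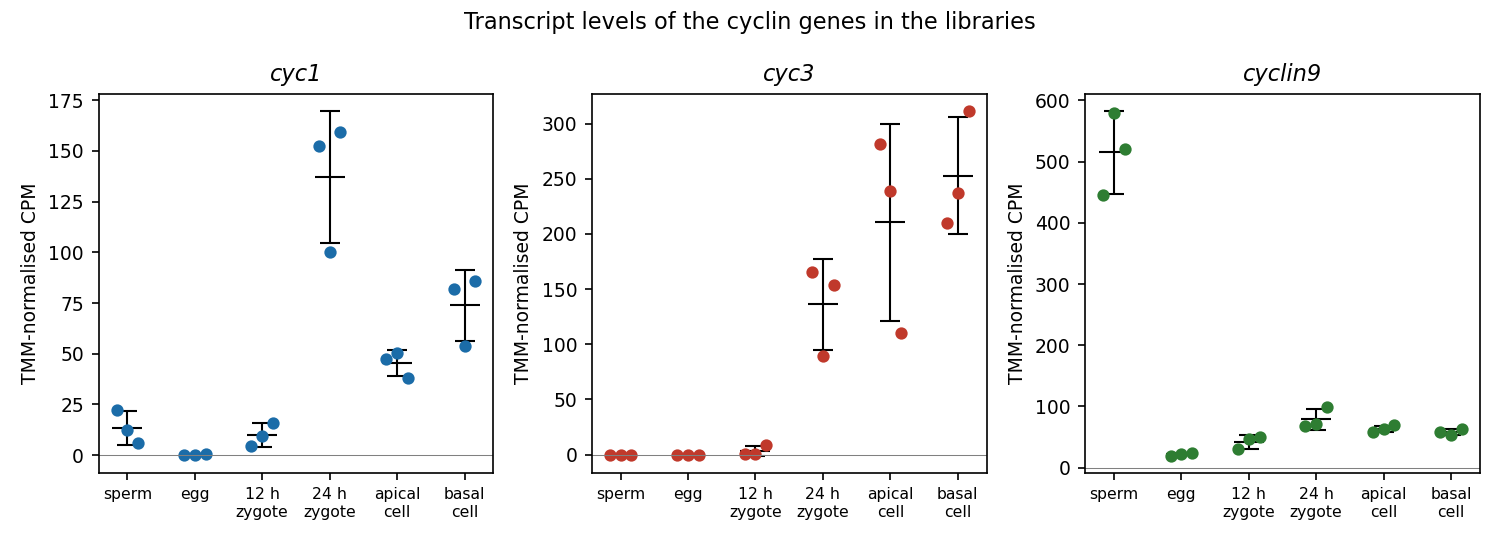
TMM-normalised CPM of cyc1, cyc3 and cyclin9 on linear axes in each of the 18 libraries, with the mean and SD of 3 libraries per group as bars. Sperm and eggs hold 0 counts of cyc3, cyc1 peaks at 137 CPM in 24 h zygotes, and cyclin9 is highest in sperm at 515 CPM.

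The levels of 2 genes in CPM cannot be compared with each other here, because no transcript lengths were used. The ratio of their counts within a library is free of library scaling, however, and its change between groups can be read. That ratio was looked at after the values had been seen, and is given without a test. The counts of cyc1 over those of cyc3 came to 4.48, 9.26 and 1.89 in 12 h zygotes and to 0.920, 1.12 and 1.04 in 24 h zygotes. In the daughter cells the ratio was 0.169, 0.210 and 0.346 in apical cells and 0.392, 0.227 and 0.275 in basal cells. The 24 h ratios lay below all 12 h ratios, the daughter cell ratios lay below all 24 h ratios, and apical and basal cells overlapped. On the log2 scale the mean ratio was lower by 2.07 in 24 h than in 12 h zygotes, lower by 2.15 in apical cells than in 24 h zygotes and lower by 1.82 in basal cells than in 24 h zygotes. With 3 libraries against 3, a two-sided exact permutation test cannot give a p under 0.1. For counting error alone, the exact 95% interval of the ratio was 6.21 to 14.3 in 12 h replicate 2, with 27 counts of cyc3, and 0.159 to 0.179 in apical replicate 1, with 7071.

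**Figure D2:**
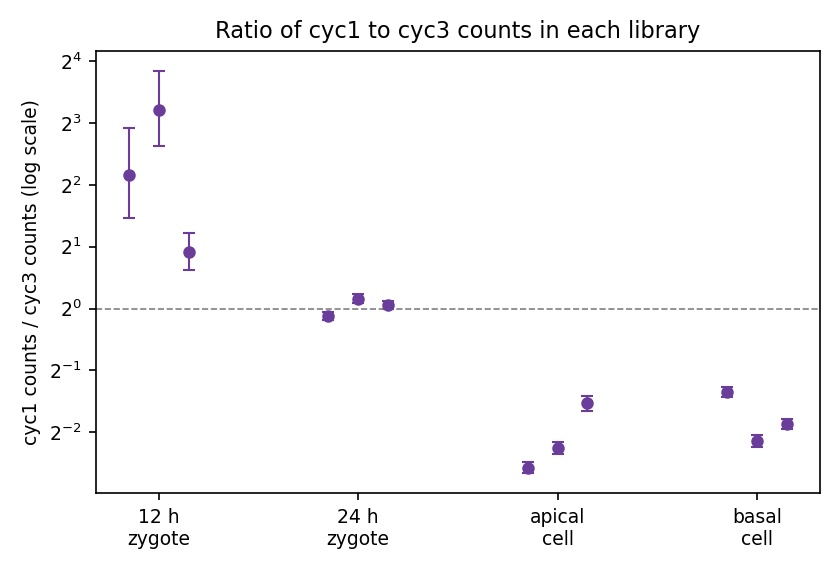
Counts of cyc1 divided by counts of cyc3 in each library of zygotes and daughter cells, on a log axis, with exact 95% counting intervals as bars. The 3 libraries at 24 h lie near equal counts (0.920 to 1.12), those at 12 h lie above them and the 6 daughter cell libraries below (0.169 to 0.392).

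The third gene, cyclin9, was present in every library and had its highest level in sperm. It stood at 445, 580 and 521 CPM in sperm, against 19.8, 22.6 and 23.8 CPM in eggs, ranges that lie far apart. In zygotes it was at 29.6, 47.2 and 50.6 CPM at 12 h and at 67.2, 71.9 and 98.7 CPM at 24 h. Each step along eggs, 12 h zygotes and 24 h zygotes was free of overlap. In the daughter cells cyclin9 was at 58.6, 62.5 and 69.1 CPM in apical cells and 58.1, 53.1 and 63.9 CPM in basal cells. By mean level the order was sperm, 24 h zygotes, apical cells, basal cells, 12 h zygotes and eggs, and 24 h zygotes overlapped apical cells, which overlapped basal cells. With library size only, 12 h zygotes stood above both daughter cells.

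Sperm had 23.4 times the cyclin9 level of eggs, at 515 ± 67.8 CPM in sperm against 22.02 ± 2.06 CPM in eggs (SD, n = 3 each), with a log2 fold change of 4.50 ± 0.27. The gene had been singled out by this contrast in the same data, so no test is given. The log2 fold change was 3.52 with library size only and 4.99 with upper-quartile scaling. The summed level of the pollen genes was higher in sperm as well, as given above, and its part in the difference was not tested. In 12 h zygotes cyclin9 was lower than in sperm, at 42.5 ± 11.3 CPM in 12 h zygotes against 515 ± 67.8 CPM in sperm. The log2 fold change was -3.56 ± 0.26 (edgeR, adjusted p = 4.55e-09). The sperm libraries here are those by which cyclin9 was singled out, so this p is not independent of that choice.

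Relative to eggs, cyclin9 rose in 12 h zygotes by a log2 fold change of 0.98 ± 0.25 (edgeR, adjusted p = 0.00720), with means of 42.5 ± 11.3 CPM in 12 h zygotes and 22.02 ± 2.06 CPM in eggs. In a fit of only these groups it did not pass (adjusted p = 0.0619, log2 fold change 1.16). It was higher in 24 h zygotes than in eggs by 1.87 ± 0.25 (edgeR, adjusted p = 0.000162). The egg libraries were part of the contrast that singled out cyclin9, so these p-values against eggs are not independent of that choice. Between 24 h and 12 h zygotes the log2 fold change was 0.89 ± 0.25 and did not pass (edgeR, adjusted p = 0.138), whereas DESeq2 called it (adjusted p = 0.0321).

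These calls were common among all genes for some comparisons and rare for others. All 3 genes were called higher in 12 h zygotes than in eggs, where 37.4% of 23806 tested genes were called, 19.4% higher and 18.1% lower. All 3 were also called higher in 24 h zygotes than in eggs, where 32.4% were called, 18% higher and 14.5% lower. For cyc1 and cyc3 that call reuses the 24 h libraries by which they were singled out. Their calls in 12 h zygotes reuse the 12 h libraries of the same contrast. For cyclin9 both calls over eggs reuse the egg libraries by which it was singled out. Between 12 h zygotes and sperm, 1 of the 3 was called higher and 1 lower, and 73.7% of 24835 genes were called, 47.7% higher and 26% lower. The gene called lower was cyclin9, which the same sperm libraries had served to single out. In sperm against eggs 63.9% of genes were called, 24.7% higher and 39.3% lower. In 24 h against 12 h zygotes 1.04% were called, 1% higher and 0.0378% lower. The split of calls moves with the scaling. With TMM, 38.6% of the genes called between sperm and eggs were higher in sperm, and with library size only 25.8%. That share was 51.8% under TMM and 73.9% under library size only in 12 h zygotes against eggs. It was 55.4% and 75.1% in 24 h zygotes against eggs, and 64.7% and 80.2% in 12 h zygotes against sperm. Over all genes tested, the median log2 fold change of sperm over egg was -0.80 under TMM and -1.80 under library size only. The same pair of medians was 0.06 and 0.58 for 12 h zygote over egg, 0.04 and 0.46 for 24 h zygote over egg, and 1.60 and 3.15 for 12 h zygote over sperm.

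**Figure D3:**
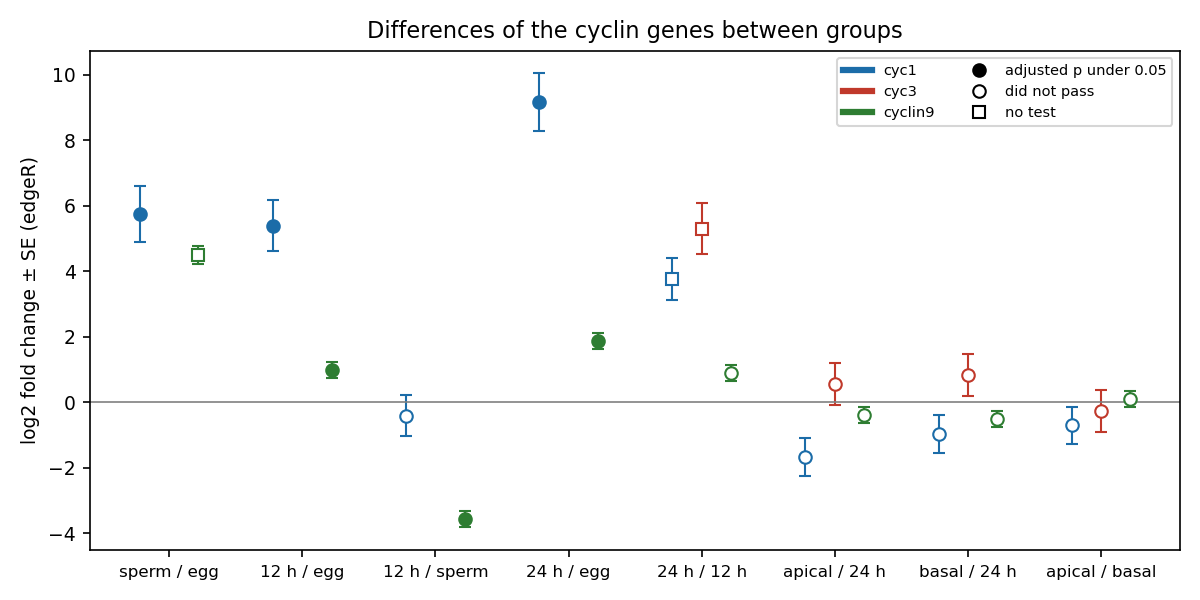
Log2 fold change of each cyclin gene in 8 comparisons (first group over second), with approximate standard errors as bars; filled circles passed an adjusted p of 0.05, open circles did not, and open squares have no test. Values of cyc3 against eggs or sperm are left out because these groups hold 0 counts, and no daughter cell value passed.

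After the division, no cyclin gene of the 3 passed the test against 24 h zygotes or between the daughter cells. The 24 h libraries had served to single out cyc1 and cyc3, so p-values of these genes against them are not independent of that choice. The level of cyc1 averaged 45.4 ± 6.31 CPM in apical cells and 73.8 ± 17.5 CPM in basal cells, against 137 ± 32.5 CPM in 24 h zygotes (SD, n = 3 each). Relative to 24 h zygotes its log2 fold change was -1.66 ± 0.59 in apical cells (edgeR, adjusted p = 0.0518) and -0.95 ± 0.58 in basal cells (edgeR, adjusted p = 0.257), although the ranges did not overlap in either. The apical value passed under 5 of the other settings tried, with adjusted p = 0.0189 for library size only, 0.0488 for RLE scaling, 0.0361 for upper-quartile scaling, 0.00692 for DESeq2 and 0.00107 in a fit of only these groups. The basal value passed only in the fit of its 2 groups, with adjusted p = 0.0130.

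For cyc3 the differences ran the other way and did not pass: the means were 211 ± 89.1 CPM in apical cells and 253 ± 52.8 CPM in basal cells, against 136 ± 41.1 CPM in 24 h zygotes. The log2 fold change was 0.57 ± 0.64 in apical cells (edgeR, adjusted p = 0.543; approximate 95% interval -0.69 to 1.83). It was 0.83 ± 0.65 in basal cells (edgeR, adjusted p = 0.383), and in the fit of only these groups it passed with adjusted p = 0.0333. For cyclin9 the values were -0.38 ± 0.25 in apical cells (adjusted p = 0.267) and -0.50 ± 0.25 in basal cells (adjusted p = 0.166). With library size only, both cyclin9 values passed, at -0.80 (adjusted p = 0.0257) and -0.86 (adjusted p = 0.0247). Over all 23806 genes, 24.9% were called between apical cells and 24 h zygotes, 13% higher and 11.8% lower in apical cells. Between basal cells and 24 h zygotes 18% were called, 9.81% higher and 8.15% lower in basal cells. The share of calls that were higher was 52.4% under TMM and 29.6% under library size only in apical cells, and 54.6% against 33.2% in basal cells. Over all genes tested, the median log2 fold change in apical cells was -0.13 under TMM and -0.55 under library size only, and in basal cells -0.20 and -0.55.

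Between apical and basal cells the 3 genes were not shown to differ. The log2 fold change of apical over basal cells was -0.70 ± 0.58 for cyc1 (approximate 95% interval -1.83 to 0.43), -0.27 ± 0.64 for cyc3 (-1.52 to 0.99) and 0.12 ± 0.25 for cyclin9 (-0.36 to 0.60). For each of the 3, edgeR's adjusted p was 1. Every apical library lay below every basal library in cyc1, while the ranges overlapped in cyc3 and cyclin9. Across all genes edgeR called 0% at an adjusted p under 0.05, with 1267 genes at an unadjusted p under 0.05, and DESeq2 called 76. Leaving out apical replicate 1, the library with the pollen transcripts, gave -0.72 for cyc1, -0.52 for cyc3 and 0.20 for cyclin9. Since each library is a pool of cells, fewer cells carrying a transcript and less of it in each cell cannot be told apart.

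The 8 other cyclin genes did not share 1 course. cyclin4 (GRMZM2G310115) and cyclin8 (GRMZM2G138886) were low at 12 h and higher on both sides of it. In 24 h zygotes cyclin4 was at 206 ± 36.3 CPM, against 27.7 ± 7.4998 CPM in 12 h zygotes, a log2 fold change of 2.89 ± 0.47 (edgeR, adjusted p = 0.00541). The level of cyclin8 was 48.4 ± 13.8 CPM in 24 h zygotes and 11.8 ± 4.95 CPM in 12 h zygotes, with a log2 fold change of 2.02 ± 0.36 (edgeR, adjusted p = 0.00900). Both had fallen in 12 h zygotes relative to eggs, by log2 fold changes of -1.78 for cyclin4 (edgeR, adjusted p = 0.00783) and -1.98 for cyclin8 (edgeR, adjusted p = 0.00105). Unlike cyc1 and cyc3, they were present in eggs, at 97.5 ± 67.6 CPM for cyclin4 and 47.7 ± 8.94 CPM for cyclin8. The egg libraries of cyclin4 ran from 25.4 to 159 CPM and overlapped the 12 h libraries. They were the 2 of the 8 other cyclins called in 24 h over 12 h zygotes; cyc1 and cyc3 carry no test in this contrast. By edgeR 0 cyclins were called lower, as by DESeq2 and at an unadjusted p under 0.05. Of all tested genes, edgeR called 1% higher and 0.0378% lower in this contrast. The median log2 fold change of the 11 was 1.22, against -0.05 for all tested genes, and it was 0.78 for the 8 others.

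Among the D-type cyclins, cycD4 (GRMZM2G133413) had its highest level in sperm, as cyclin9 did. It was at 164, 183 and 155 CPM in sperm, against 0.278, 3.40 and 2.84 CPM in eggs, and the log2 fold change was 6.22 ± 0.79 (edgeR, adjusted p = 3.19e-06). It fell in 12 h zygotes relative to sperm, at 2.11 ± 1.22 CPM in 12 h zygotes, by a log2 fold change of -6.27 (edgeR, adjusted p = 2.78e-06). In apical cells it was lower than in 24 h zygotes, with 2.46 ± 1.001 CPM in apical cells and 13.7 ± 7.66 CPM in 24 h zygotes (log2 fold change -2.53 ± 0.82, edgeR, adjusted p = 0.0370). cycD1 (GRMZM2G006721) stayed at a low level, with 3.64, 1.03 and 2.61 CPM in 12 h zygotes and at most 0.782 CPM in any other library. It rose in 12 h zygotes over eggs (log2 fold change 4.79 ± 1.25, edgeR, adjusted p = 0.00853). cycD2 (GRMZM2G075117) had 0 counts in sperm and averaged 14.8 ± 1.69 CPM in 12 h zygotes, against 9.40 ± 0.387 CPM in eggs, with no call between 12 h zygotes and eggs (adjusted p = 0.295).

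Cyclin-SDS (GRMZM2G093157), whose Arabidopsis relative acts in meiosis, and cyclin11 (GRMZM2G161382) were also higher in 12 h zygotes than in eggs. Cyclin-SDS was at 5.33 to 7.53 CPM in 12 h zygotes and 0.289 to 2.16 CPM in eggs (log2 fold change 2.38 ± 0.62, edgeR, adjusted p = 0.00827). cyclin11 had 32 counts over the 12 h zygote libraries and 0 in eggs and sperm (edgeR, adjusted p = 0.00458 against eggs). cyclin-C (GRMZM2G408242), in yeast and animals a partner of the kinase of the Mediator complex, fell in both daughter cells. It was at 32.2 ± 3.30 CPM in apical cells and 30.1 ± 5.01 CPM in basal cells, against 52.3 ± 3.12 CPM in 24 h zygotes. Its log2 fold change over 24 h zygotes was -0.76 (edgeR, adjusted p = 0.0219) in apical cells and -0.86 (adjusted p = 0.0165) in basal cells.

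Counted over the 11 cyclins, 6 were called higher and 3 lower in 12 h zygotes than in eggs, with 2 not called. The median log2 fold change was 0.98, against 0.06 for all genes, of which 19.4% were called higher and 18.1% lower. Without the 3 genes, 3 of the 8 others were higher and 3 lower, with a median of 0.34. In 24 h zygotes against eggs, 6 were higher and 0 lower by edgeR, and 5 were not called. Among the 8 others, 3 were higher and 0 lower by edgeR, beside 18% higher and 14.5% lower of all tested genes. At an unadjusted p under 0.05, and by DESeq2, 8 of the 11 were higher and 0 lower. In sperm against eggs cyclin9 has no test and cyc1 was called higher. Of the 8 others, 1 was called higher there, cycD4, and 4 lower, beside 24.7% higher and 39.3% lower of all tested genes. In both gametes 2 of the 11 had 0 counts. In 12 h zygotes against sperm, 6 of the 11 were higher and 3 lower, and among the 8 others 5 were higher and 2 lower. Of all tested genes, 47.7% were called higher and 26% lower in that comparison. After the division, 2 of 11 fell in apical cells relative to 24 h zygotes, cyclin-C and cycD4, 1 fell in basal cells, cyclin-C, and 0 rose in either by edgeR, by DESeq2 or at an unadjusted p under 0.05. Between apical and basal cells 0 of 11 were called by edgeR, by DESeq2 or at that unadjusted p. With library size only, apical cells had 4 that fell and basal cells 3. Under TMM, 13% of all tested genes rose and 11.8% fell in apical cells, and 9.81% rose and 8.15% fell in basal cells.

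The kinase partners were followed as well. cdc2 (GRMZM2G008327), by its symbol a cyclin-dependent kinase, was at 26.1 ± 5.79 CPM in 24 h zygotes and 20.1 ± 5.39 CPM in 12 h zygotes, and no difference passed (log2 fold change 0.37 ± 0.28, edgeR, adjusted p = 0.713). wee1 (GRMZM5G878541), a kinase that inhibits cyclin-dependent kinases by phosphorylation, fell after the division. It was at 68.1 ± 9.96 CPM in apical cells and 51.5 ± 9.55 CPM in basal cells, against 121 ± 30.4 CPM in 24 h zygotes. Its log2 fold change was -0.88 ± 0.24 in apical cells (edgeR, adjusted p = 0.0166) and -1.29 ± 0.24 in basal cells (edgeR, adjusted p = 0.00372). Sperm had 4 counts of wee1 in all, against 3076 in eggs (log2 fold change -9.05, edgeR, adjusted p = 5.34e-10).

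RBR1 (GRMZM2G003043), a retinoblastoma-related gene of the family that holds back entry into replication, rose in the daughter cells over 24 h zygotes. It was at 178, 177 and 221 CPM in apical cells and 163, 165 and 165 CPM in basal cells, against 81.2, 72.98 and 45.9 CPM in 24 h zygotes. The log2 fold change was 1.47 ± 0.31 in apical cells (edgeR, adjusted p = 0.00506) and 1.24 ± 0.31 in basal cells (edgeR, adjusted p = 0.0151), and with library size only the basal value did not pass (adjusted p = 0.0671). All 3 genes of the list of E2F and retinoblastoma-related genes, which held only RBR1, RBR2 and Rbl1, rose in apical cells and 2 of them in basal cells. With library size only, 1 of the 3 passed in apical cells, RBR1, and 0 in basal cells. Under TMM, 13% of all tested genes rose in apical cells and 9.81% in basal cells. Between 24 h and 12 h zygotes edgeR called 0 of the 3, and 1 was lower in 24 h zygotes at an unadjusted p under 0.05 and by DESeq2. mad2 (GRMZM2G047143), a component of the spindle checkpoint and the single matched gene of its list, rose in 24 h zygotes, with 258 ± 43.1 CPM in 24 h zygotes and 71.5 ± 20.7 CPM in 12 h zygotes. Its log2 fold change was 1.84 ± 0.33 (edgeR, adjusted p = 0.00983). The 12 h level of mad2 was below that of eggs (log2 fold change -0.93, edgeR, adjusted p = 0.03485), but not with library size only (adjusted p = 0.3774). In 24 h zygotes over eggs its log2 fold change was 0.91 (edgeR, adjusted p = 0.0420). In sperm mad2 was at 2489 ± 380 CPM, against 140 ± 31.1 CPM in eggs (log2 fold change 4.11, edgeR, adjusted p = 2.41e-08).

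Kinesins are motors that move along microtubules and include proteins of the spindle. Of 12 kinesin genes, 11 were tested in 24 h over 12 h zygotes. By edgeR 4 of them rose, 0 fell and 7 were not called. Of all tested genes 1% rose and 0.0378% fell, with a median log2 fold change of -0.05. For the 11 kinesins that median was 2.25. At an unadjusted p under 0.05, 7 were higher and 0 lower, and DESeq2 called 6 higher and 0 lower. KIN6 (GRMZM2G114861) was at 127 ± 22.6 CPM in 24 h zygotes and 26.6 ± 4.003 CPM in 12 h zygotes (log2 fold change 2.25 ± 0.25, edgeR, adjusted p = 0.000243). KIN13 (GRMZM2G034828) was at 81.2, 51.7 and 63.4 CPM in 24 h zygotes, against 1.18, 2.64 and 3.33 CPM in 12 h zygotes (log2 fold change 4.77 ± 0.60, edgeR, adjusted p = 0.000695). KIN8 and kin11 were the other 2 that rose, by 3.16 (adjusted p = 0.00541) and 4.51 (adjusted p = 0.00107) on the log2 scale. In apical cells 1 of the 11 rose over 24 h zygotes, kin15 (GRMZM2G054418, log2 fold change 1.48 ± 0.46, edgeR, adjusted p = 0.0319), which did not pass with library size only. In basal cells edgeR called 0 of the 11, with 2 higher and 2 lower at an unadjusted p under 0.05, and DESeq2 called 1 higher. Of all tested genes, edgeR called 13% higher and 11.8% lower in apical cells, and 9.81% higher and 8.15% lower in basal cells.

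Of 12 genes of DNA replication, 7 rose and 1 fell in 12 h zygotes relative to eggs. Among all tested genes 19.4% rose and 18.1% fell there. With library size only, 9 of the 12 rose over eggs and 0 fell. In 24 h over 12 h zygotes 1% of all tested genes rose. Of the 12 replication genes 1 rose and 11 were not called. The 1 was RNRL2 (GRMZM2G340527), by its symbol a large subunit of ribonucleotide reductase, at 111 ± 9.46 CPM in 24 h zygotes and 46.4 ± 8.42 CPM in 12 h zygotes (log2 fold change 1.24 ± 0.26, edgeR, adjusted p = 0.0264); it did not pass with library size only. MCM6 (GRMZM2G021069), a subunit of the replicative helicase, rose in both daughter cells. It was at 421, 426 and 439 CPM in apical cells and 737, 216 and 238 CPM in basal cells, against 44.8, 39.5 and 78.9 CPM in 24 h zygotes. Its log2 fold change was 2.92 ± 0.61 in apical cells (edgeR, adjusted p = 0.00459) and 2.80 ± 0.61 in basal cells (edgeR, adjusted p = 0.00752). Of 5 histone genes, 0 were called between 24 h and 12 h zygotes by edgeR or DESeq2, and 2 were higher in 24 h zygotes at an unadjusted p under 0.05. By edgeR 4 rose in 24 h zygotes over eggs, and 1, H1 (GRMZM2G003002), fell in each daughter cell relative to 24 h zygotes. Among all tested genes 18% rose in 24 h zygotes over eggs. Relative to 24 h zygotes 11.8% of them fell in apical cells and 8.15% in basal cells. In sperm against eggs 9 of 12 replication genes were higher and 2 lower, and 4 of 5 histone genes were higher and 1 lower. Over all genes 24.7% were called higher and 39.3% lower in that comparison. The histone split moved with the scaling, to 3 higher and 1 lower with library size only. It was 4 higher and 0 lower with RLE or upper-quartile scaling.

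**Figure D4:**
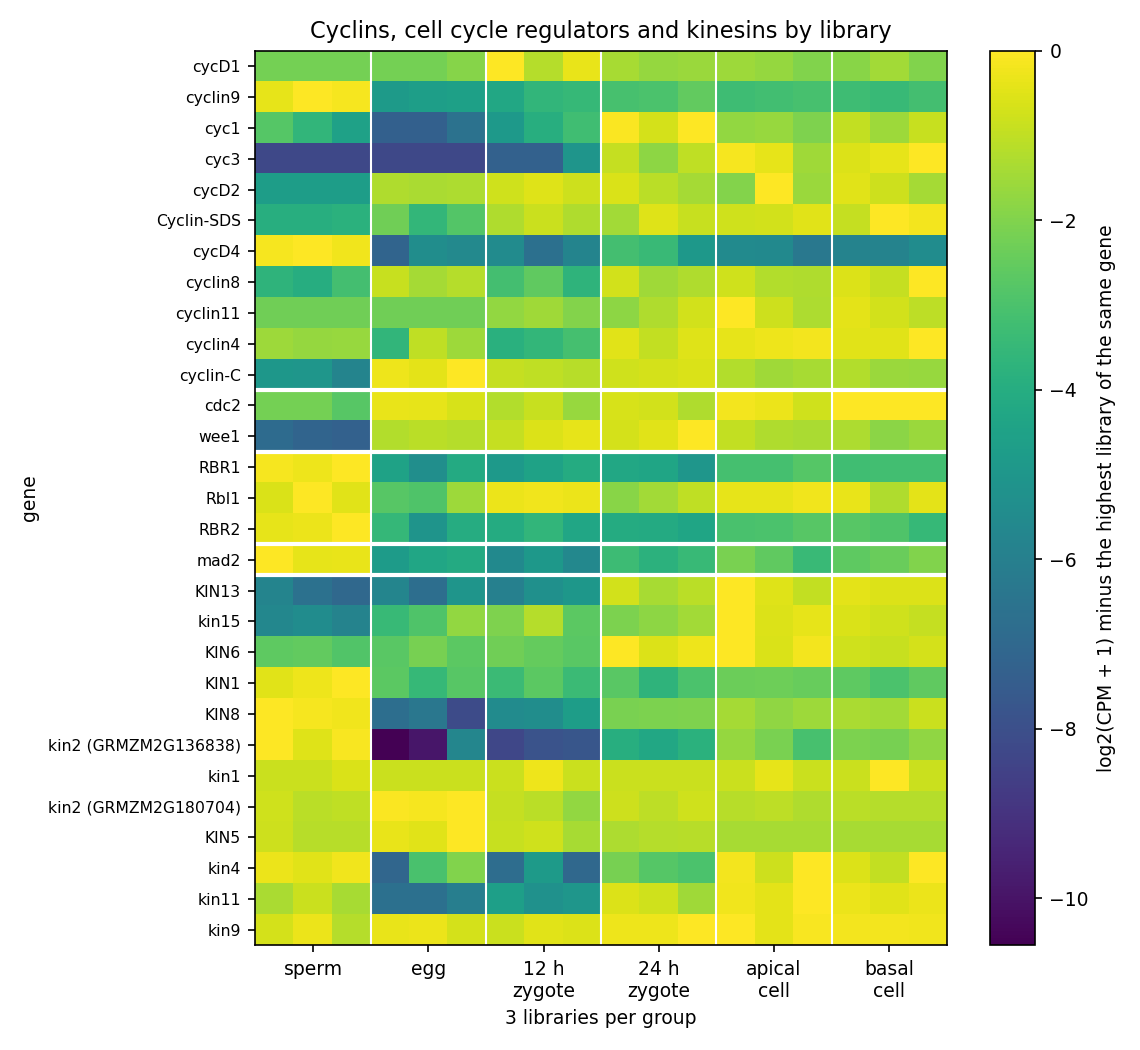
Level of 11 cyclins, cdc2, wee1, RBR1, Rbl1, RBR2, mad2 and 12 kinesins in each library, as log2(CPM + 1) minus the value of the library where that gene is highest; bright is near the gene's own maximum. The rows of cyc3 and KIN13 are dark up to 12 h and bright from 24 h on, the row of cyc1 is darkest in eggs and brightest in 24 h zygotes, and cyclin9, cycD4 and RBR1 are brightest in sperm.

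Genes were ranked by Pearson's r of log2(CPM + 1) with each cyclin over the 18 libraries, among 24832 genes. Only the 5 best with an informative name are given, and other genes ranked higher. A higher r was held by 44 genes than by CSLD1 for cyc1, 85 than by PHD16 for cyc3 and 97 than by PHD2 for cyclin9. Ranked by Spearman's correlation, 4 of the 5 remained for cyc1, 0 for cyc3 and 0 for cyclin9. Libraries of a group resemble each other and share their scaling, so these values are descriptions without a p. For cyc1 the 5 were HMG5 (GRMZM2G060253, r = 0.95), EREB171 (GRMZM2G013657, r = 0.93), nfd106 (GRMZM2G125648, r = 0.90), Cel20 (GRMZM2G453565, r = 0.88) and CSLD1 (GRMZM2G015886, r = 0.87). Of these, 4 were still among the 5 best over the 15 libraries without sperm. HMG5 averaged 45.2 CPM in sperm, 3.93 CPM in eggs, 19.9 CPM in 12 h zygotes, 141 CPM in 24 h zygotes, 93.2 CPM in apical cells and 98.9 CPM in basal cells. For cyc3 the 5 were KIN13 (r = 0.98), CSLD1 (r = 0.94), KIN6 (r = 0.94), Cel20 (r = 0.93) and PHD16 (GRMZM2G168249, r = 0.92), and 1 of them, KIN13, was among the 5 best without sperm. CSLD1, named on both lists, had 0 counts in sperm and eggs, as cyc3 did, and averaged 146 CPM in 24 h zygotes.

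For cyclin9 the 5 were ANAC044 (GRMZM2G104078, r = 0.95), orc2 (GRMZM2G117238, r = 0.94), PepR1 (GRMZM2G011806, r = 0.94), RPL10 (GRMZM2G088005, r = 0.94) and PHD2 (GRMZM2G119357, r = 0.93). Without sperm 0 of them remained among the 5 best, and their r was 0.60 to 0.81, so the likeness rests on the high sperm libraries. Between cyc1 and cyc3 r was 0.85 over 18 libraries and 0.93 without sperm. Between cyc1 and cyclin9 it was 0.29 over all libraries and 0.96 without sperm, and between cyc3 and cyclin9 -0.14 and 0.87. Outside sperm, cyclin9 thus had its lowest level in eggs and its highest in 24 h zygotes, as cyc1 did.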

How the data were processed

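The authors deposited raw counts per gene ID (39475 IDs, 18 libraries), whole numbers that had not been normalised. RNA was amplified with a low-input cDNA kit and sequenced in pairs, per the labels' protocols, without molecular identifiers. The submitters' processing notes name STAR 2.5.2a, featureCounts, cutadapt 1.13, Trimmomatic 0.32, FastQC, DESeq2 and the build B73 RefGen_v3. How strand and multiple mapping were handled is not given in the sources used here; overlapping genes and near-identical copies are therefore uncertain. Gene names came from a table for another assembly (Zm-B73-REFERENCE-NAM-5.0). It matched 18387 IDs to 1 gene and 2556 to an informative name, so no coordinates are given.

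The counts went into edgeR 4.0.16 in R 4.3.3 (TMM, filterByExpr, quasi-likelihood test with robust dispersions), adjusted over all tested genes by Benjamini-Hochberg, and genes were called at an adjusted p under 0.05. Sperm comparisons came from all 18 libraries and the others from the 15 without sperm. CPM use TMM over all 18 libraries and genes. The standard error is the absolute log2 fold change over the square root of F. No pair of libraries in a group agreed within sampling noise (smallest chi-square per degree of freedom 24.3 over 18 pairs). On simulated counts for 24 h over 12 h zygotes (23062 genes), the test called 4%, 38%, 60% and 86% of genes changed by 1, 2, 3 and 4 on the log2 scale. Each size had 50 genes, drawn at random among those with a mean of at least 50 counts.

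The 3 genes, the 7 gene lists and the comparisons were chosen with earlier results of these data known. Named genes are the 3 cyclins, all other cyclins, and for every list and direction the member called at the lowest adjusted p. To these come the 5 most similar genes with an informative name for each of the 3. KIN13, KIN8 and kin11 in 24 h over 12 h zygotes and cdc2 in zygotes were added after their values were seen. Genes with krp symbols are kinesins here and were left out of the kinase list after the reference had been seen. Alternatives were other scalings, no filter, DESeq2 1.42.0, a replicate block, fits of only the groups compared, and leaving out each library.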

Additional observations from a re-analysis of the deposited data

How the results depend on the processing

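Of 161 log2 fold changes of the 3 genes under other settings, 145 kept direction and call. For the rest, cyclin9 in sperm over eggs was 3.52 with library size only, 4.83 with RLE scaling, 4.99 with upper-quartile scaling and 4.83 with DESeq2. In 12 h zygotes over eggs, cyclin9 no longer passed in the fit of only these groups (1.16), and in 24 h over 12 h zygotes it passed with DESeq2 (0.85). In apical cells over 24 h zygotes cyc1 passed at -2.07 (library size only), -1.67 (RLE), -1.77 (upper quartile), -1.68 (DESeq2) and -1.71 (only these groups). With library size only cyclin9 passed at -0.80 in apical and -0.86 in basal cells over 24 h zygotes, and in the fit of only the groups compared cyc1 (-0.97) and cyc3 (0.82) passed in basal cells. In 12 h zygotes over sperm cyc1 turned to 1.21 with library size only. The cause of these changes was not tested.

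Fits of only the groups compared called 3785 genes in 12 h zygotes over eggs, 890 in 24 h over 12 h zygotes, 8194 in basal cells over 24 h zygotes, 2 in apical over basal cells and 3611 in 24 h zygotes over eggs, against 8912, 248, 4276, 0 and 7718. DESeq2 called 741 in 24 h over 12 h zygotes and 76 in apical over basal cells. Leaving out 1 library, cyc1 in 12 h zygotes over sperm ran from -0.90 to 0.19, cyc3 in apical over basal cells from -0.52 to 0.029 (without apical replicate 3), and cyc3 in 24 h over 12 h zygotes from 4.86 to 7.06. Calls then ran from 127 to 175 in 24 h over 12 h zygotes, from 2713 to 4302 in apical and from 1690 to 2808 in basal cells over 24 h zygotes. Fewer libraries were in these fits.

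Whether replicate numbers pair the apical and basal libraries is not settled. Deviations of same-numbered apical and basal libraries correlated at 0.267, 0.295 and -0.000436, against -0.32 to 0.0765 for libraries of different number. Replicates 1 and 2 thus lay above that range and replicate 3 within it. With the replicate number as a block, no call of the 3 genes changed, and 187, 4895 and 3375 genes were called in 24 h over 12 h zygotes, apical over 24 h and basal over 24 h, against 248, 5916 and 4276. At this number of libraries the simulated test rarely found changes of 1 on the log2 scale (4% of 50 genes). Those genes were drawn from many and each kept its own scatter, so the share is not a rate for cyclin9. What the absence of a call for cyclin9 can show is limited, and DESeq2 called it in 24 h over 12 h zygotes.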
